A study of Rattus norvegicus with 6 samples.

Results

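Neurofilaments and the other intermediate filaments of neurons were followed through the RNA of rat dorsal root ganglia (DRG) after chronic constriction injury (CCI) of the sciatic nerve. The group holds 7 genes of the 43350 gene rows in the table, namely Nefl, Nefm, Nefh, Ina, Prph, Nes and Vim. Each gene was found by its symbol, taking a protein-coding row first and then the row with the largest summed count, and all 7 were found. The rule finds rows by gene name, the summed count over all 6 libraries serves only to pick among rows of the same symbol, and no difference between the groups enters it. The 7 genes themselves were chosen with earlier results of these data known.

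Intermediate filaments are the rope-like part of the cytoskeleton, built from rod-shaped proteins that pair and pack side by side without any motor polarity. In the axon, neurofilaments are assembled from a light (Nefl), a medium (Nefm) and a heavy (Nefh) subunit together with alpha-internexin (Ina) or, in peripheral neurons, peripherin (Prph). They fill the axon and set its calibre, and are most abundant in the large myelinated sensory neurons, while peripherin is prominent in the small unmyelinated ones. Nestin (Nes) and vimentin (Vim) are the filament proteins of immature and non-neuronal cells, vimentin being abundant in glia, fibroblasts and endothelium. The DRG hold the cell bodies whose axons run in the sciatic nerve, so the neuronal RNA of Nefl, Nefm, Nefh, Ina and Prph there is the source of the protein carried down the axon.

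The animals were male Sprague-Dawley rats with no transgene, whose age the labels do not give and the methods state only for the time of purchase. In the CCI group the left sciatic nerve was tied with loose ligatures, and in the sham group it was exposed in the same operation but left untied, so both groups share the anaesthesia and the surgical wound, while the labels give the sham rats no treatment. The ipsilateral lumbar DRG, levels L4 to L6, were taken 11 days after surgery from 3 CCI rats and 3 sham rats, and the methods describe 1 rat per sample although the labels speak of a pooled sample. Total RNA was depleted of ribosomal RNA and sequenced, and the table gives for each row the reads counted and the FPKM value, which divides them by the row length and the library total and is the only scale used here to compare one gene with another. A whole ganglion was measured, so fewer cells of a type and less RNA per cell cannot be told apart.

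The 6 libraries held 75423546 to 87615743 counts, and the TMM scaling factors lay between 0.988 and 1.01. Markers of the labelled tissue were present: the 9 markers of neurons summed to 1624 to 1878 FPKM and the 7 markers of Schwann cells to 3030 to 4125 FPKM per library, while the 5 markers of central glia summed to at most 2.28 FPKM. Sham 1 stood apart in skeletal muscle genes, whose 5 measured markers summed to 115 FPKM there and to between 4.18 and 16.8 FPKM in the other 5 libraries. For that reason the counts below were also taken without sham 1.

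In the coordinates of the deposited table, whose genome the authors call V101, Nefl and Nefm are neighbours on chromosome 15 and are transcribed towards each other. Nefl lies at 44799334-44804574 on the plus strand and Nefm at 44855205-44860604 on the minus strand. Nefh lies on chromosome 14 at 85181572-85191557 (minus), Ina on chromosome 1 at 266781617-266794431 (plus) and Prph on chromosome 7 at 140742418-140746197 (plus). Nes lies on chromosome 2 at 187344056-187352568 (plus) and Vim on chromosome 17 at 80882666-80891212 (plus). The rows are whole protein-coding genes, so each value covers exons and untranslated ends together. The row lengths implied by their counts and FPKM values run from 1927 bases for Prph to 6679 bases for Nes.

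Part of 2 rows is shared with transcripts of the other strand, and whether strand was used in counting is not stated. The Ina row overlaps 1388 bases of Nt5c2, a nucleotidase gene on the minus strand, whose log2 fold change between the groups was 0.07 (edgeR p-value 0.621). Nt5c2 held 4876 to 6591 counts per library over its whole row, against 6001 to 8492 for Ina. A U6 row that shares 106 bases with Ina held 0 to 8 counts. The part of these overlaps in the Ina values was not tested. An assembled minus-strand row of 1293 bases inside Nefl held 261 counts in sham 2 and 0 in the other 5 libraries, against at least 258409 counts for Nefl itself.

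The stretch just before the start of transcription is shown for the genes with an entry in RefSeq's promoter table (build GRCr8, another build than that of the table), because 3 of the 4 genes with an entry, Ina, Prph and Vim, were the members that were higher in the CCI group, and Nes is the one that was not. Nefl, Nefm and Nefh are named only. Each line gives the 150 bases before the start site, 5′ to 3′ on the gene's own strand, with every TATA box, searched as TATAAA, and every GC box, searched as GGGCGG and here found only on the opposite strand, in capitals. The windows are chr1:255837979-255838128 for Ina, chr7:132097139-132097288 for Prph, chr17:81577111-81577260 for Vim and chr2:175736438-175736587 for Nes, all on the plus strand.
Ina: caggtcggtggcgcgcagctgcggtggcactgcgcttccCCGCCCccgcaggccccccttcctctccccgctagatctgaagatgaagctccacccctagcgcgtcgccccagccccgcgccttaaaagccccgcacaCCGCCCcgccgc
Prph: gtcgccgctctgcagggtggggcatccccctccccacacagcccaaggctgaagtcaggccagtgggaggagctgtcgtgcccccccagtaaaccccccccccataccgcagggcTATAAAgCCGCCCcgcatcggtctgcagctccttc
Vim: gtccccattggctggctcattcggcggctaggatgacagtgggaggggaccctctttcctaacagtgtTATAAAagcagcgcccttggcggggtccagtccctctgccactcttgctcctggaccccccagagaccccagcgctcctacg
Nes: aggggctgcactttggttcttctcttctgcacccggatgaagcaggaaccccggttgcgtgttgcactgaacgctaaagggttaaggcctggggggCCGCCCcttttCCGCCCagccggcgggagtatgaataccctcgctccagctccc

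The 4 windows are rich in G and C, from 62.0% of bases in Nes and Vim to 73.3% in Ina. Prph holds a TATAAA at -35 to -30 from the start, followed by a GC box at -28 to -23, and Vim holds a TATAAA at -82 to -77. Ina and Nes hold 2 GC boxes each and no TATAAA. Over 33469 RefSeq promoters of the same length, 8.00% hold TATAAA and 26.0% hold GGGCGG, both strands being read. The letters TGACGTCA and TGANTCA, the sites of cAMP-response and AP-1 factors, are in none of the 4 windows and in 1.36% and 3.69% of all promoters. These are matches of letters in a fixed window and not measured binding.

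In the sham group the light subunit stood far above the rest. By mean FPKM the order was Nefl at 1354, Nefh at 822, Prph at 683, Nefm at 679.7, Vim at 332, Ina at 15.1 and Nes at 12.2. Prph and Nefm did not differ beyond their spread, and the single high Nefm value of sham 1 also exceeded every Nefh value, whereas the other neighbours did not overlap. In the CCI group the order was Nefl at 920.1, Prph at 822, Nefh at 570.0, Nefm at 562, Vim at 388, Ina at 18.7 and Nes at 10.8 FPKM. Prph thus stood above Nefh in every CCI library and below Nefh in every sham library. Nefh and Nefm, and Nefm and Vim, overlapped in the CCI group.

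**Figure D1:**
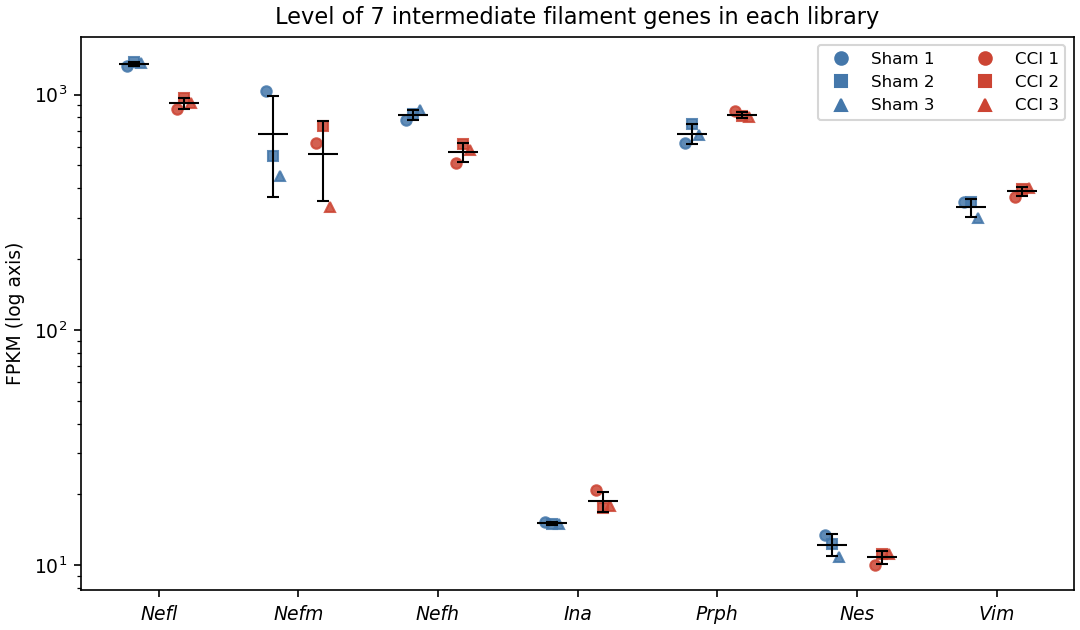
FPKM (log axis) of the 7 genes in each library, sham in blue and CCI in red, with black marks for the mean and bars for the SD of 3 libraries. The groups are apart for Nefl and Nefh (CCI lower) and for Ina, Prph and Vim (CCI higher), and the 3 Nefm points of each group spread widely, from 332 to 1036 FPKM over both groups.

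Nefl was the third most abundant of the 20872 protein-coding rows in every sham library and the seventh in every CCI library. Nefh ranked between 7 and 11 in the sham group and between 18 and 22 in the CCI group, whereas Prph moved from between 13 and 18 to between 9 and 12. Vim ranked from 29 to 44 and Nefm from 4 to 42 over the 6 libraries. Ina and Nes were far less abundant, at ranks of 1863 to 2685 and 2943 to 3896. Together the 7 genes took 1.23% to 1.39% of all counts in the sham libraries and 0.956% to 1.12% in the CCI libraries.

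In these libraries the RNAs of the light and heavy neurofilament subunits were lower in every CCI library than in any sham library. Those of alpha-internexin, peripherin and vimentin were slightly higher in every CCI library, and those of the medium subunit and nestin overlapped between the groups. The counts were compared with edgeR's quasi-likelihood test over 26663 rows, those that averaged 0.5 FPKM or more, and all 7 members are among them. At a Benjamini-Hochberg adjusted p-value under 0.05, 1 member (Nefl) was lower and 0 were higher, where over all rows 0.0300% were lower and 0.0638% were higher. At the study's limits, an unadjusted p-value under 0.05 and a size of 0.58 or more on the log2 scale, 0 members were called in either direction, beside 1.26% of all rows called lower and 2.57% called higher. Those 0 members include Nefl at -0.57 and Nefh at -0.54, just short of the limit on size, and without sham 1 or without CCI 2 both passed it, so that 2 members were called lower.

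At an unadjusted p-value under 0.05 with no limit on size, a count added after the data were seen, 2 members were lower and 3 were higher, beside 5.18% and 5.57% of all rows. The same 5 members were those whose FPKM values did not overlap between the groups, 2 lower and 3 higher, where 7.56% of all rows were apart and lower and 9.73% were apart and higher. Without sham 1 the counts at an unadjusted p-value were again 2 lower and 3 higher, and without sham 3 they were 3 lower and 1 higher. The median log2 fold change of all rows was 0.01.

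**Figure D2:**
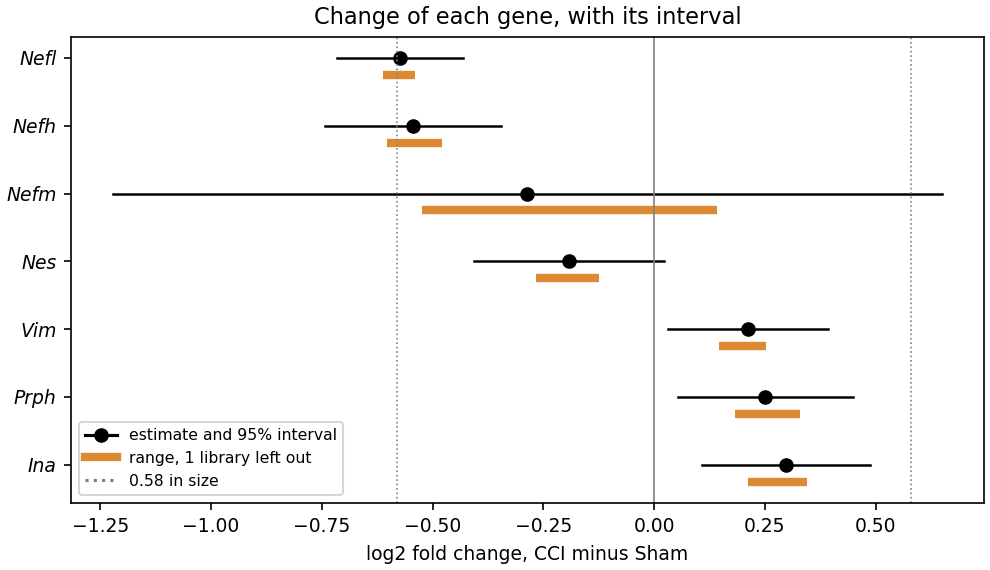
Log2 fold change of each gene, CCI minus sham, from edgeR (black point) with its 95% interval (black line) and, in orange, the lowest and highest estimate when 1 library was left out. Nefl and Nefh lie left of 0 at -0.57 and -0.54, Vim, Prph and Ina lie right of 0 at 0.21 to 0.30, and Nefm is the gene whose orange range crosses 0. The dotted lines mark a log2 fold change of 0.58 in size.

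Nefl, the light subunit that the medium and heavy subunits need as a partner, had 1327, 1371 and 1364 FPKM in sham 1, 2 and 3 and 872, 968.5 and 920.0 FPKM in CCI 1, 2 and 3. The highest CCI library was well below the lowest sham library. The means were 1354 ± 23.9 in the sham group and 920.1 ± 48.3 in the CCI group (SD, n = 3), a level 0.672 times that of the sham group. The log2 fold change was -0.57 (SE 0.059, 95% interval -0.72 to -0.43) with a p-value of 4.11e-05 and an adjusted p-value of 0.0457 in edgeR's test. When any 1 of the 6 libraries was left out, the log2 fold change stayed between -0.61 and -0.54 and the adjusted p-value lay between 0.0630 and 0.175, so the adjusted call needs all 6.

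Nefh, whose long phosphorylated tail reaches out from the filament, had 777, 829 and 860.1 FPKM in the sham libraries and 515, 615 and 580.0 FPKM in the CCI libraries, in the order 1, 2, 3. Again the groups did not overlap. The means were 822 ± 41.8 and 570.0 ± 51.1 FPKM (SD, n = 3), and the log2 fold change was -0.54 (SE 0.083, 95% interval -0.74 to -0.35), close to that of Nefl. The edgeR p-value was 0.000415 and the adjusted p-value 0.103, which misses the threshold over all rows. In 2 of 16 other ways of processing the adjusted p-value fell under 0.05, with DESeq2 and with protein-coding rows alone, and the unadjusted one did so in 16 of 16.

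Nefm, the subunit with a tail of intermediate length, gave no readable difference. It had 1036, 550.5 and 453 FPKM in the sham libraries and 620.5, 734 and 332 FPKM in the CCI libraries. The highest and the lowest value belonged to sham 1 and CCI 3, and the groups overlapped almost fully. The means were 679.7 ± 312 and 562 ± 207 FPKM (SD, n = 3), with a log2 fold change of -0.29 (SE 0.39, 95% interval -1.22 to 0.65, p-value 0.489). That interval holds both the change seen for Nefl and no change, and without sham 1 the estimate turned to 0.14.

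The spread of Nefm within the groups was large. The SD of its log2 CPM (counts scaled to library size) was 0.61, against 0.058 for Nefl and 0.11 for Nefh, and the median over the 270 protein-coding rows with a mean of at least 100 FPKM was 0.077. Only 4 of those 270 rows, 1.48%, had a larger SD. Nefm had between 86948 and 315068 counts per library. Its row joins 3 transcripts, 1 from the annotation and 2 assembled from the reads, whereas the Nefh row joins 8, of which 1 is annotated, and the Nefl row holds 1. Whether the way transcripts were assembled has a part in the spread was not tested.

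Ina, the alpha-internexin gene, was a minor component of the ganglion and slightly higher after CCI. It had 15.3, 14.9 and 15.0 FPKM in the sham libraries and 20.8, 17.5 and 17.8 FPKM in the CCI libraries. The sham libraries were nearly alike, and every CCI library was above them, CCI 1 the most. The means were 15.1 ± 0.231 and 18.7 ± 1.81 FPKM (SD, n = 3), with a log2 fold change of 0.30 (SE 0.079, 95% interval 0.11 to 0.49), a p-value of 0.00800 and an adjusted p-value of 0.266 in edgeR. Part of this row is shared with Nt5c2 as given above.

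Prph, the peripherin gene, had 622, 752 and 674 FPKM in the sham libraries and 850.2, 809 and 806 FPKM in the CCI libraries. All CCI libraries were above all sham libraries, by the narrowest margin between CCI 3 and sham 2. The means were 683 ± 65.8 and 822 ± 24.6 FPKM (SD, n = 3), and the log2 fold change was 0.25 (SE 0.082, 95% interval 0.05 to 0.45) with a p-value of 0.0203 and an adjusted p-value of 0.356 in edgeR. Leaving out 1 library at a time, the unadjusted p-value lay between 0.00474 and 0.0583.

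Vim, the vimentin gene, had 348, 349 and 298 FPKM in the sham libraries and 368, 398 and 399 FPKM in the CCI libraries. CCI 1 lay just above sham 1 and sham 2, and the groups did not overlap. The means were 332 ± 29.2 and 388 ± 18.0 FPKM (SD, n = 3), and the log2 fold change was 0.21 (SE 0.075, 95% interval 0.03 to 0.39) with a p-value of 0.0281 and an adjusted p-value of 0.389 in edgeR. Leaving out 1 library at a time, the unadjusted p-value lay between 0.0264 and 0.0799.

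Nes, the nestin gene, had 13.5, 12.3 and 10.8 FPKM in the sham libraries and 10.0, 11.2 and 11.2 FPKM in the CCI libraries. Sham 3 lay among the CCI libraries, so the groups overlapped. The log2 fold change was -0.19 (SE 0.090, 95% interval -0.41 to 0.02), with a p-value of 0.0723 and an adjusted p-value of 0.524 in edgeR. A fall of the size seen for Nefl lies outside that interval. Leaving out 1 library at a time, the estimate lay between -0.27 and -0.12 and the unadjusted p-value between 0.0175 and 0.214. It was under 0.05 only without sham 3, where Nes was the third member counted as lower.

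Because a ratio of genes within a library does not depend on how libraries are scaled, member RNAs were compared as 6 ratios of FPKM. These are ratios of RNA over all cells of the ganglion. The make-up of the filaments themselves was not measured. Each was tested with a two-sided exact permutation test over the 20 ways to split 6 libraries, whose smallest possible p-value is 0.1, so that no ratio could pass a threshold of 0.05. The p-values were adjusted over the 6 ratios.

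The RNA of the heavy relative to the light subunit differed by less than the spread between libraries. Nefh/Nefl was 0.586, 0.604 and 0.630 in the sham libraries and 0.590, 0.635 and 0.630 in the CCI libraries. The means were 0.607 ± 0.0224 and 0.619 ± 0.0247 (SD, n = 3), a difference of 0.03 on the log2 scale that is within the spread of either group (exact p-value 0.5, adjusted 0.75). The ratios that include Nefm were as scattered as Nefm itself, with Nefm/Nefl between 0.332 and 0.781 in the sham group and between 0.361 and 0.758 in the CCI group (exact p-value 0.8, adjusted 0.9). Nefh/Nefm likewise overlapped (exact p-value 0.9, adjusted 0.9).

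The RNAs of peripherin and alpha-internexin were both higher relative to that of the light subunit. Prph/Nefl was 0.469, 0.549 and 0.494 in the sham libraries and 0.975, 0.836 and 0.876 in the CCI libraries. The groups lay far apart, with means of 0.504 ± 0.0410 and 0.896 ± 0.0718 (SD, n = 3), a difference of 0.83 on the log2 scale. Ina/Nefl went from 0.0111 ± 0.000371 to 0.0205 ± 0.00303 (SD, n = 3), a difference of 0.87, and also did not overlap. For both the exact p-value was 0.1, the smallest the design allows, and 0.2 after adjustment. Both outcomes followed from the single genes, since every CCI library had more Prph and Ina and less Nefl than every sham library. The 2 ratios are therefore no further evidence. Between the filament genes of non-neuronal and immature cells, Vim/Nes was 25.9, 28.3 and 27.5 in the sham libraries and 36.7, 35.6 and 35.6 in the CCI libraries, again apart (exact p-value 0.1, adjusted 0.2).

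**Figure D3:**
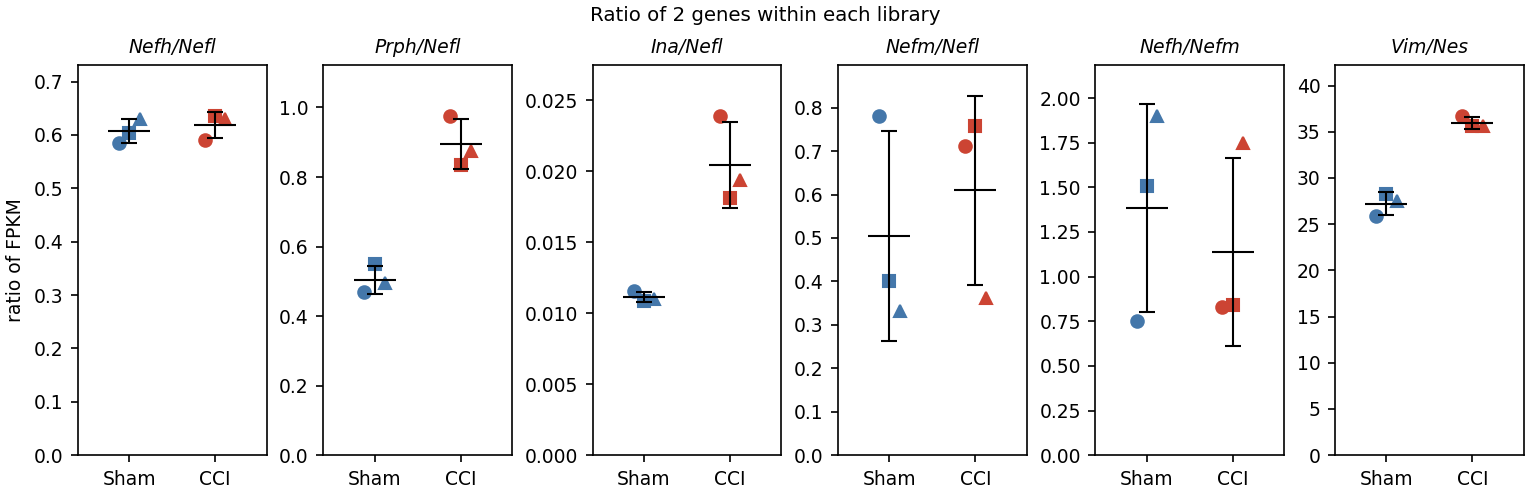
Ratio of the FPKM of 2 genes within each library, sham in blue and CCI in red (circle, square and triangle are replicates 1, 2 and 3), with the mean and SD of 3 libraries; each axis starts at 0. Nefh/Nefl is level at 0.607 and 0.619, Prph/Nefl, Ina/Nefl and Vim/Nes are higher in all 3 CCI libraries, and the ratios that include Nefm overlap.

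Taken as shares of the summed FPKM of the 5 axonal genes, Nefl made up 38.2% ± 2.78 in the sham group and 31.9% ± 2.38 in the CCI group (SD, n = 3). Prph made up 19.3% ± 2.54 and 28.5% ± 2.47, Nefh 23.2% ± 2.50 and 19.8% ± 1.98, Nefm 18.8% ± 7.51 and 19.1% ± 5.82, and Ina 0.425% ± 0.0192 and 0.651% ± 0.0848. The shares of Nefl, lower in the CCI group, and of Prph and Ina, higher there, did not overlap between the groups, while those of Nefh and Nefm did. The sum itself was 3777, 3517 and 3367 FPKM in the sham libraries and 2878, 3145 and 2656 FPKM in the CCI libraries, lower in every CCI library.

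Within the CCI group the members did not all follow one library. CCI 1 had the lowest Nefl and Nefh and the highest Prph and Ina of the 3. It also had the highest Atf3, the transcription factor induced in neurons with a cut or tied axon, at 34.9 FPKM against 20.3 and 16.2 in CCI 2 and CCI 3, and 1.89 to 2.36 FPKM in the sham libraries. CCI 1 stood apart in markers of other cells too, with the lowest summed level of fibroblast genes (389 FPKM against 580.3 to 685 in the other 5 libraries) and of endothelial genes (13.8 against 15.8 to 20.6 FPKM), and the highest of macrophage genes (47.3 FPKM). With 3 libraries this is a description of CCI 1, and the part of these cells in the member values was not tested. Without CCI 1, Nefl was at a log2 fold change of -0.54 (edgeR adjusted p-value 0.0630).

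Of the other intermediate filament genes, 12 of 18 were abundant enough to be tested. Over all rows 2.57% were called higher and 1.26% lower at the study's limits. Gfap, the filament of reactive glia, and Krt7, a keratin of simple epithelia, passed the study's limits and were higher, none passed an adjusted p-value, and the median log2 fold change of the 12 was 0.09 beside 0.01 for all rows, though it was 0.19 without sham 1, 0.16 without CCI 1 and 0.01 without CCI 3. Gfap had 2.70, 3.52 and 3.01 FPKM in the sham libraries and 8.75, 5.21 and 4.85 FPKM in the CCI libraries. All CCI libraries were above the sham libraries, with a log2 fold change of 1.01 (SE 0.25, edgeR p-value 0.00538, adjusted 0.236).

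Krt7 had 2.28, 2.14 and 2.25 FPKM in the sham libraries and 5.75, 2.84 and 4.51 FPKM in the CCI libraries, a log2 fold change of 0.95 (SE 0.25, edgeR p-value 0.00804, adjusted 0.267). Synm, which encodes synemin, a large filament protein that assembles with vimentin, was lower at 28.8 ± 1.39 against 34.4 ± 2.02 FPKM (SD, n = 3; log2 fold change -0.27, edgeR p-value 0.00395, adjusted 0.215). Sync, which encodes syncoilin, stood at 10.4 and 10.9 FPKM in the CCI and sham groups, the keratin gene Krt8 at 1.28 and 1.18 FPKM, and the lamin genes Lmnb1 at 1.40 and 1.21 FPKM and Lmnb2 at 1.33 and 1.09 FPKM, none of which passed the test. Lmna, the gene of lamins A and C of the nuclear envelope, was at 23.3 FPKM in the CCI group and 22.8 FPKM in the sham group. Des, the muscle filament desmin, was highest in sham 1 at 5.95 FPKM, the library with the high muscle genes, and between 0.945 and 2.28 FPKM in the other 5.

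Few genes that act on the filaments passed the test. In this and the following lists the counts stand beside 5.18% of all rows lower and 5.57% higher at an unadjusted p-value under 0.05. At the study's limits the shares of all rows were 1.26% lower and 2.57% higher. A count of 1 gene is too few to be a result about its list. The genes named in the following lists because of an unadjusted p-value under 0.05 were chosen after their values were seen, unless they passed the study's limits, and none of them passed an adjusted p-value. Of 13 kinases, phosphatases and partners that act on neurofilament tails, 0 were higher and 1 was lower, Cdk5, a kinase of the heavy-subunit tail, at 23.9 ± 0.173 against 27.3 ± 2.18 FPKM (SD, n = 3; log2 fold change -0.21, edgeR p-value 0.0296, adjusted 0.397). That count was 0 when CCI 1, CCI 2, sham 2 or sham 3 was left out. Mapk3, an ERK kinase, and Ppp2ca, a phosphatase catalytic subunit, the most abundant of the 13, stood at 266 and 125 FPKM in the CCI group and 256 and 112 FPKM in the sham group. Of 8 chaperones, ubiquitin ligases and proteases that turn filaments over, 1 was higher, the small heat-shock protein gene Hspb1, at 146.8 ± 22.3 against 104.9 ± 13.5 FPKM (log2 fold change 0.47, edgeR p-value 0.0135, adjusted 0.314). Without CCI 2 the count was 2 higher, and without CCI 3 it was 1 higher and 1 lower.

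The motors that carry filaments showed changes under 0.2 in size on the log2 scale where they passed. Of 9 motor genes, the kinesin heavy chain Kif5b, the kinesin light chain Klc1 and the dynein intermediate chain Dync1i1 were lower, at log2 fold changes of -0.18, -0.19 and -0.19, and Kif5c was higher, at 0.15. The count changed with single libraries, to 0 higher and 1 lower without sham 1 or without CCI 2, to 1 higher and 1 lower without CCI 3 or without sham 2, to 0 higher and 2 lower without CCI 1, and to 0 higher and 3 lower without sham 3. Kif5a, the neuronal kinesin heavy chain that carries neurofilaments, stood at 215 FPKM in the CCI group and 227 FPKM in the sham group. Its groups did not overlap, though it did not pass (edgeR p-value 0.0786). Of the 9 motor genes 5 were apart and lower and 1 was apart and higher, beside 7.56% and 9.73% of all rows. Of 3 plakin cross-linker genes, 1 was higher, Macf1, which links actin and microtubules, at a log2 fold change of 0.22, but 0 were higher and 1 lower without sham 2, and 1 was higher and 1 lower without CCI 1. Dst, which encodes dystonin, stood at 107.7 FPKM in the CCI group and 102 FPKM in the sham group.

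Other parts of the axonal cytoskeleton gave changes in both directions. Of 12 genes 3 were higher and 1 was lower at an unadjusted p-value, and the median log2 fold change was 0.05. In FPKM 5 of the 12 were apart and higher and 4 were apart and lower, beside 9.73% and 7.56% of all rows. Tubb3, the neuronal beta-tubulin, had 1020.5, 1182 and 1124 FPKM in the sham libraries and 1489.9, 1345 and 1327.5 FPKM in the CCI libraries, a log2 fold change of 0.31 (SE 0.082, edgeR p-value 0.00832, adjusted 0.268). Stmn2, a tubulin-binding protein of growing axons, was higher by a log2 fold change of 0.33, and Tuba1a, on a row that joins several genes, by 0.30.

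Map1a, a microtubule-associated protein of mature neurons, was the one that was lower, at 167 ± 0.525 against 194 ± 10.6 FPKM (SD, n = 3; log2 fold change -0.23, edgeR p-value 0.00725, adjusted 0.261). Without sham 1 the list gave 2 higher and 2 lower, and without CCI 1 its median turned to -0.07.

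**Figure D4:**
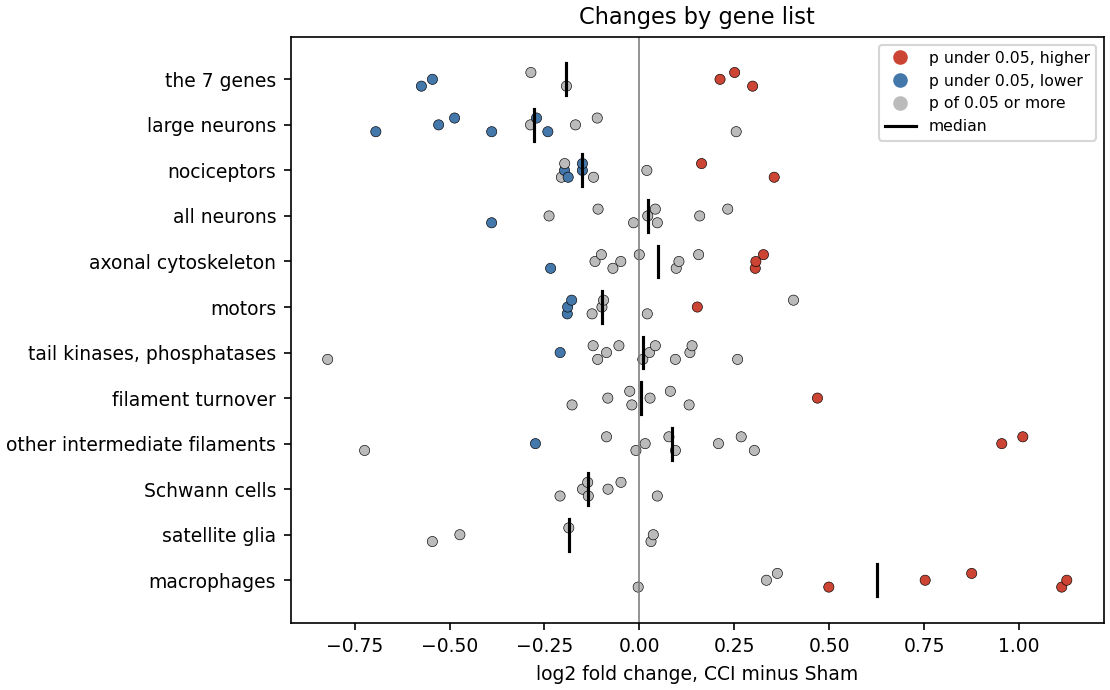
Log2 fold change, CCI minus sham, of every tested gene in 12 lists, coloured by an unadjusted edgeR p-value under 0.05 (red higher, blue lower, grey neither), with a black bar at each list's median. The large-neuron genes lie mostly left of 0 with a median of -0.28, markers of all neurons centre near 0 at 0.02, and macrophage genes lie right of 0 with a median of 0.63.

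Of the markers of the large myelinated sensory neurons, the cells richest in neurofilament, some were lower after CCI and the rest did not pass the test. Of 10 such genes 6 were lower and 0 were higher at an unadjusted p-value, and 7 were apart and lower. Over all rows 5.18% were lower, 5.57% were higher, and 7.56% were apart and lower. At the study's limits 1 of the 10 (Pvalb) was lower, beside 1.26% of all rows, and 0 passed an adjusted p-value. Without sham 1 or without CCI 2 the count was again 6 lower and 0 higher. It was 5 lower without CCI 1 or sham 3, 7 lower without sham 2, and 6 lower and 1 higher without CCI 3. The median log2 fold change of the 10 was -0.28, beside 0.01 over all rows.

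Pvalb, the calcium buffer parvalbumin of proprioceptors, had 129, 94.8 and 104 FPKM in the sham libraries and 60.5, 74.4 and 70.1 FPKM in the CCI libraries, a log2 fold change of -0.69 (SE 0.13, edgeR p-value 0.00134, adjusted 0.144). The groups did not overlap. The sodium channel Scn1a at -0.53, the potassium channels Kcnc1 at -0.49 and Kcna1 at -0.27, the transcription factor Etv1 at -0.39 and the neurotrophin receptor Ntrk3 at -0.24 were the other 5. Spp1, the osteopontin gene and the most abundant of the 10, stood at 358 ± 91.0 FPKM in the CCI group against 297 ± 17.9 FPKM in the sham group, with overlapping groups. Kcna2 at -0.29, Ntrk2 at -0.17 and Runx3 at -0.11 did not pass (edgeR p-values 0.0609, 0.0816 and 0.673). The list was chosen with earlier results of these data known. The part of these neurons in the member values was not tested.

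Markers of all neurons did not move together. Of 9 genes 0 were higher and 1 was lower, Snap25, a synaptic vesicle fusion protein, at a log2 fold change of -0.39 with overlapping groups, and the median was 0.02. The count of lower genes was 0 without CCI 1, CCI 3 or sham 3 and 2 without sham 1, and 1 gene was higher without CCI 1. Uchl1 and Thy1, abundant neuronal genes, stood at 825 and 524 FPKM in the CCI group and 789 and 523 FPKM in the sham group. Of 10 nociceptor genes 4 were lower and 2 were higher, with a median of -0.15, and the lower ones numbered 2 without CCI 1, sham 2 or sham 3, while 1 was higher without CCI 3. Trpa1, an irritant-gated channel, was the largest of these at 0.35, and the peptide gene Calca was among the lower ones at -0.15. In FPKM 4 of the 10 nociceptor genes were apart and lower and 2 were apart and higher, beside 7.56% and 9.73% of all rows. Of the 9 markers of all neurons 0 were apart.

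Markers of axon injury were higher in 9 of 9 genes at the study's limits, 3 of them (Atf3, Gal and Npy) at an adjusted p-value, with a median log2 fold change of 3.47. These are genes that the study names from the same samples, so their direction is no independent evidence. Among other cell types, macrophage markers were higher for 5 of 8 genes at an unadjusted p-value. At the study's limits 4 were higher (Cd68, Csf1r, Cx3cr1 and C1qa, at log2 fold changes of 0.75 to 1.13). The 8 summed to 31.3 to 47.3 FPKM in the CCI libraries against 20.4 to 27.4 FPKM in the sham libraries. The study also names Cd68, Csf1r and Cx3cr1 from the same samples, so their direction is no independent evidence either. Vim is also a gene of macrophages, fibroblasts and glia, and the part of these cells in its higher level was not tested.

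Schwann cell markers passed edgeR's test in 0 of 7 genes in either direction, with a median of -0.13. Their summed level was 3030, 3386 and 4125 FPKM in CCI 1, 2 and 3 and 3675 to 4170 FPKM in the sham libraries, and 3 of the 7 were lower without CCI 3 and 1 without sham 2. The part of Schwann cells in the member values was not tested. Without CCI 3, Nefl was at a log2 fold change of -0.57 (edgeR adjusted p-value 0.114). Satellite glia passed in 0 of 5, fibroblasts in 0 of 5, endothelium in 0 of 4 and the cell cycle in 0 of 5, where DESeq2 gave 1 satellite glia gene lower and 1 cell cycle gene higher. Of 5 mural cell genes 1 was higher, Acta2, and 3 were higher without CCI 1. The 4 T cell genes were too low to be tested, and the 1 central glia gene that was abundant enough did not pass, although without CCI 2 or without sham 1 that gene and 1 cell cycle gene were higher. Muscle genes were lower for 4 of 5 at the study's limits, all with overlapping groups and with sham 1 as the high library, and the count at an unadjusted p-value was 0 of 5 without sham 1, CCI 2 or CCI 3 and 2 without CCI 1. Without sham 1, Nefl was at a log2 fold change of -0.59 (edgeR adjusted p-value 0.139). The part of muscle in the member values was not tested.

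The genes whose pattern over the 6 libraries was most like each member were found among 12987 protein-coding rows by Pearson correlation of log2 CPM, which is a description over 6 points that share library, depth and group. Nefl was closest to Abcd2, Mycbp2 and Sec14l2 (r of 0.996 to 0.997) and Nefh to Tln2, Sec14l2 and Impdh1 (0.995 to 0.997), so that Sec14l2 stands near both. Prph was closest to Trpv2, Slc35e4 and Jpt1 (0.994 to 0.996) and Ina to Csf2rb, Ccdc172 and Kcnmb2 (0.996 to 0.999). Vim was closest to Rrm1, Evc and Stk17b (0.980 to 0.996), Nes to Sox9, RGD1562987 and Slc66a1 (0.980 to 0.983), and Nefm to Hddc2, Leng9 and Exosc6 (0.980 to 0.983).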

How the data were processed

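RNA of the ipsilateral lumbar DRG was measured in 6 libraries, 3 CCI and 3 sham. The labels name HISAT2 2.0 and StringTie 1.3.0, and the methods a rat genome called V101. For each gene row and sample the authors deposited a count, a whole number that was not normalized. The FPKM values, also deposited by the authors, follow the counts divided by a row length and the library total. The length so implied was the same in all libraries within 1% for 84.7% of the better counted rows, the 7 members among them. A count of 0 is listed as a small constant.

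Rows averaging 0.5 FPKM or more over the libraries, 26663 in all, were fitted with edgeR 4.0.16 (TMM, quasi-likelihood test, 2.52 prior degrees of freedom, no covariate), and p-values were adjusted over all of them by Benjamini-Hochberg. Calls used the study's limits, which are an unadjusted p under 0.05 and a change of 0.58 or more on the log2 scale in size, or else an adjusted p under 0.05. Ratios of FPKM were compared by exact permutation over libraries. The members and the gene lists were chosen with earlier results of these data known. The result of 1 list is not reported here. Named genes are the 7 members and the 3 rows most correlated with each, and from the lists genes could be drawn from those called (up to 4 a list), the 2 most abundant that were not called and other intermediate filament genes of at least 1 FPKM, not all of which are named. Genes named for an unadjusted p alone lie outside that rule and were chosen after their values were seen. Kcna2, Ntrk2 and Runx3, named to complete their list, also lie outside it.

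Alternatives were RLE factors, DESeq2 1.42.0, limma 3.58.1 on log2(FPKM + 0.1) and log2(FPKM + 1), a filter of 1 FPKM or none, protein-coding rows alone, a robust prior, summed rows, a replicate block and the omission of every library in turn. Promoter sequences are from RefSeq (GRCr8), with 4 of 7 members matched. Replicates were taken as separate rats. R 4.3.3 and Python 3.11.15 were used.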

Additional observations from a re-analysis of the deposited data

How the results depend on the processing

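Of 112 fits of the members under other settings, 111 kept the direction, and the exception was Nefm without sham 1, whose log2 fold change was 0.14. With DESeq2 the rows with an adjusted p under 0.05 numbered 432 higher and 319 lower, 2 members were lower and Nefh passed at -0.55. With protein-coding rows alone they numbered 36 higher and 35 lower, 332 and 112 rows passed the study's limits, 2 members were lower and Nefh passed at -0.53 (adjusted p 0.0470). With limma on log2(FPKM + 0.1), 5 rows were lower at an adjusted p and 0 members, Nefl being at -0.56. With limma on log2(FPKM + 1), 410 rows higher and 161 lower passed the study's limits, 1 list gene was lower, and 0 members passed an adjusted p, Nefl again at -0.56. DESeq2 gave Nefl an adjusted p of 1.13e-11, the lowest of its 16 alternatives.

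Same-numbered samples did not deviate together (correlations of -0.00943, -0.0195 and -0.0535). With 3 libraries a group this cannot exclude a batch shared by number, and the sample titles state no pairing. With a replicate block an adjusted p called 0 rows higher and 0 lower (1199 and 1137 at an unadjusted p under 0.05), 0 members passed and Nefl was at -0.58 (adjusted p 0.194).

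Leaving out 1 library gave 3 to 40 rows higher and 3 to 21 lower at an adjusted p, 0 members, and 0 to 2 members lower at the study's limits, 2 of them without CCI 2 and without sham 1. Members higher at an unadjusted p numbered 1 to 3, and list genes lower at the study's limits 0 to 7, beside 5 with all libraries. Nefl ranged from -0.61 to -0.54 and Nefm from -0.52 to 0.14. The causes were not tested. Medians of the lists moved in 11 of 160 alternatives and changed sign in 7. With 3 libraries a group, the intervals of Prph, Ina and Vim reach close to 0.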
